A study of Mus musculus with 11 samples.

Results

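The inflammasome and inflammatory cytokine genes described here were 10 members, fixed by name: Nlrp3, Pycard, Casp1, Casp4, Gsdmd, Il1b, Il18, Il1rn, Tnf and Il12b, out of 21887 protein-coding genes of RefSeq's mm10 annotation. A peak was counted for a member when it lay inside the gene or within 1000 bp of its ends, or when the nearest end of any protein-coding gene within 50 kb was the member's. Such peaks numbered 14 of 14731 in alveolar macrophages of naive mice, 12 of 10861 at day 15 of tumour growth and 0 of 3352 at day 30. They fell into 16 separate regions: 10 were in the naive and day 15 lists, 4 in the naive list only and 2, both upstream of Il1b, in the day 15 list only. Of all naive peaks, 64.1% overlapped a day 15 peak and 21.7% a day 30 peak, and 12.8% of day 15 peaks overlapped no naive peak. Shares for naive peaks of like strength, which add up to 1.5 of these 14 at day 30, are given below.

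The cells were resident alveolar macrophages of C57BL/6 mice, sorted from lung tissue and profiled by ATAC-seq, an assay that maps open chromatin by letting a transposase cut and tag accessible DNA. The naive group (4 samples) came from mice without tumours. The other mice received KP or KP-GFP cells, cultured lung tumour cells, through the tail vein and were analysed at day 15 (4 samples) or day 30 (3 samples), so the tumours are transplants and not tumours arising in the lung. The samples of a group share a single peak list, which leaves values without a replicate error and the conditions without a test between them. In cells sorted together, fewer cells of a type and less accessibility per cell cannot be told apart.

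An inflammasome is a protein complex that switches on inflammatory caspases in the cytosol. The sensor NLRP3 recruits the adaptor ASC, the product of Pycard, which activates caspase-1. Caspase-1 matures the cytokines made from Il1b and Il18 and cleaves gasdermin D, whose fragments form pores in the membrane, while the caspase encoded by Casp4 responds to lipopolysaccharide in the cytosol and also cleaves gasdermin D. Il1rn encodes the natural antagonist of the IL-1 receptor, Tnf a cytokine made rapidly by macrophages after NF-kB activation, and Il12b the subunit shared by IL-12 and IL-23. Alveolar macrophages are the resident phagocytes of the air spaces, and in many macrophages the genes Nlrp3, Il1b and Tnf are switched on by a priming signal.

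In all, 14731 peaks were called for naive cells, 10861 for day 15 and 3352 for day 30. Depth, recovered from the peak values as the genome-wide background of the peak caller, was 39.2, 93.5 and 82.2 tags per 10 kb, so that the later lists were 2.38 and 2.1 times as deep as the naive list. Of 16 alveolar macrophage markers, 8 had a peak inside or within 1000 bp in naive cells, 3 at day 15 and 0 at day 30, and 33, 23 and 2 peaks were assigned to these markers as a whole. The markers Siglecf, Fabp4 and Car4 had no assigned peak in any list, whereas Marco had 7, 5 and 0 away from the gene. Of 10 general macrophage and myeloid markers, such as Spi1, Csf1r and Mertk, 9, 8 and 2 had a peak inside or within 1000 bp (20, 14 and 3 assigned peaks). Of 10 monocyte and neutrophil markers the counts were 3, 3 and 1 (6, 6 and 2 assigned peaks), of 10 T and B cell markers 3, 3 and 0 (5, 4 and 0), of 10 epithelial markers 1, 1 and 0 (5, 3 and 0) and of 10 endothelial markers 2, 2 and 0 (4, 5 and 0). Over all protein-coding genes, 42.6%, 36.1% and 15.2% had a peak inside or within 1000 bp in the naive, day 15 and day 30 lists. The part of other cells in the values below was not tested.

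Peaks lay at the transcription start sites of 5 members. RefSeq promoter sequences of the GRCm38.p6 assembly (mm10) were matched for 9 of the 10 members, with 13 start sites, and Gsdmd was not matched. The 250 bases before a start overlapped a naive peak at 8 of the 13 member starts (5 genes), a day 15 peak at 5 (3 genes) and a day 30 peak at 0, where 31.7%, 27.1% and 11.5% of 21263 starts of protein-coding genes did so. The 250 bases before the start are printed below for the 5 members with a naive peak there, and for Il1b as a member with none, 5′ to 3′ on the gene's strand. Of the 250 printed bases, naive peaks covered 148 and 228 at the Nlrp3 starts, 11 at Casp1 and 94 at Casp4. They covered 62 at Il1rn and 224 at Tnf. Capitals mark matches to any of 6 short motifs that were searched on both strands.

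Nlrp3, first start (chr11:59541319-59541568, plus strand): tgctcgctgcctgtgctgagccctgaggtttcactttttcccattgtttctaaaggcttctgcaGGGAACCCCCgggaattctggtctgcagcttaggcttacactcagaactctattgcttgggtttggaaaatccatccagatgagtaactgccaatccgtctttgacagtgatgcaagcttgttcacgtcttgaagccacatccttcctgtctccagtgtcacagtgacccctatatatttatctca
Nlrp3, second start (chr11:59542436-59542685, plus strand): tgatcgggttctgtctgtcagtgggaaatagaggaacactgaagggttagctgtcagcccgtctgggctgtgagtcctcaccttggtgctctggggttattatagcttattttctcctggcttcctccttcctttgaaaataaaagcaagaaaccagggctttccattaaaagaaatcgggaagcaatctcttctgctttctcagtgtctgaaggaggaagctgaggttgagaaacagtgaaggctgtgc
Casp1 (chr9:5298267-5298516, plus strand): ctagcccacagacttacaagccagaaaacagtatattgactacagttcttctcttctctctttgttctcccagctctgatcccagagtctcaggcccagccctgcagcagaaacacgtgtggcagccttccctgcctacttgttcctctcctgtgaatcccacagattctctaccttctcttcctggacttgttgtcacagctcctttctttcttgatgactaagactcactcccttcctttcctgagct
Casp4, first start (chr9:5308599-5308848, plus strand): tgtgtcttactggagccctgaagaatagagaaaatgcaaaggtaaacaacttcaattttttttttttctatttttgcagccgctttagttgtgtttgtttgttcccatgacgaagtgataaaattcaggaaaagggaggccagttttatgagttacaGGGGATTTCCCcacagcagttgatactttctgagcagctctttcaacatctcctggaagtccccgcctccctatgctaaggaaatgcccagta
Il1rn, second start (chr2:24345041-24345290, plus strand): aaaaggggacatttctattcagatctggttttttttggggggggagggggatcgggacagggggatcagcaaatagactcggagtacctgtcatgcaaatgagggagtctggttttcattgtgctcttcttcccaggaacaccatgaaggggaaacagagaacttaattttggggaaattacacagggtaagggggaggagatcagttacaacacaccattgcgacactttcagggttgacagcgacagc
Tnf (chr17:35202008-35202257, minus strand): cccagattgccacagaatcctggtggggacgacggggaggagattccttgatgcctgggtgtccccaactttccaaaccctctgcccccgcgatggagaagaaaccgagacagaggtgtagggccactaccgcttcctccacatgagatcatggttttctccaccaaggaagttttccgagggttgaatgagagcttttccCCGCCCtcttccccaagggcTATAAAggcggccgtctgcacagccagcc
Il1b (chr2:129371140-129371389, minus strand): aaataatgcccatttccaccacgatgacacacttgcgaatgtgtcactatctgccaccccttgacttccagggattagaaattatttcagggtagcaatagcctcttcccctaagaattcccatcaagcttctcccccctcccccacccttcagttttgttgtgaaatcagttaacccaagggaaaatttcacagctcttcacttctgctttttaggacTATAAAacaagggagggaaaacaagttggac

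The motifs were those of PU.1 (GAGGAAGT), AP-1 (TGANTCA), C/EBP (TTGCNNAA), the TATA box (TATAAA), Sp1 (CCGCCC) and kappa B, given by its name alone. Kappa B matches stood before the first Nlrp3 start and in Casp4, where overlapping matches gave the run GGGGATTTCCC, and 4.18% of 21263 promoters held one. The Nlrp3 match, at −186, lay outside the naive and day 15 peaks at that start, which began at −148 and −134. A TATA box match lay at −29 relative to the Tnf start and at −31 relative to the Il1b start (11.6% of promoters), and Tnf also held an Sp1 match (42.6% of promoters). No match was found in the windows of Casp1, the second Nlrp3 start or the second Il1rn start, which says only that these letters are not there. The 13 member starts were poor in CpG pairs, with 1 to 10 in the 250 bases (median 3), where starts with a naive peak had a median of 18 over all genes and those without one 5. Among the 11160 starts with at most 10 CpG pairs, a bound taken from the members after their values were seen, 9.91% overlapped a naive peak, 7.57% a day 15 peak and 1.86% a day 30 peak, against 55.7%, 48.6% and 22.1% of the 10103 starts with more.

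Taking whole genes, 7 of the 10 members had a peak inside or within 1000 bp in naive cells (42.6% of all protein-coding genes), 4 at day 15 (36.1%) and 0 at day 30 (15.2%). Among the strongest 3352 peaks of each list, the length of the shortest one, 0 members had such a peak in any list. Nlrp3, Casp4, Il18 and Tnf had one in the naive and day 15 lists. Casp1, Il1rn and Il12b had one in the naive list only, that is, 3 of the 7 had lost it at day 15, where 19.9% of the 9330 genes with a naive peak had. By day 30 all 7 had lost it, against 64.6% of those genes. Pycard, Gsdmd and Il1b had none in any list, and 0 members gained one at day 15 (3.47% of the 12557 genes without a naive peak).

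**Figure D1:**
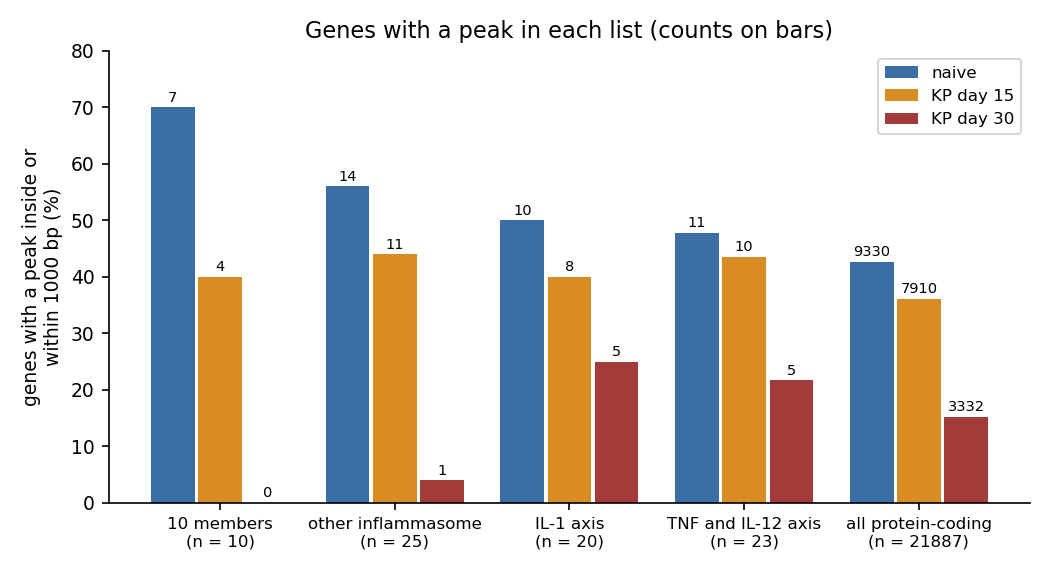
Percent of genes with a peak inside the gene or within 1000 bp of its ends (y axis) in the naive, KP day 15 and KP day 30 lists (blue, orange and red bars), for the 10 members, 3 related gene lists and all protein-coding genes (x axis), with the number of genes on each bar. The members went from 7 to 4 to 0 of 10, and all protein-coding genes from 42.6% to 36.1% to 15.2%.

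Nlrp3, the sensor, had 2 peaks in the naive list and 2 at day 15, one at each of its 2 annotated starts. The peak at the first start lay on chromosome 11 at 59541421 to 59541827 in the naive list, with a summit pileup of 16 tags, a fold over local background of 4.78 and a −log10 p of 8.66. At day 15 it lay at 59541435 to 59541704, with 26 tags, a fold of 4.64 and a −log10 p of 11.6. These folds and p-values are the authors' own, for each peak within its list. The summits were at −19 and −16 bp relative to that start, nearly the same position in both lists.

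The second Nlrp3 peak lay inside the gene, at 59542458 to 59542797 in naive cells (19 tags, fold 5.65) and at 59542530 to 59542778 by day 15 (22 tags, fold 3.99). Its summits were at −29 and −34 bp relative to the second start. The local background around the pair was high at both times, 2.56 and 4.82 tags at the first peak, against a genome-wide level of 0.785 and 1.87. At naive depth the 2 later pileups correspond to 10.9 and 9.23 tags. The nearest day 30 peak lay 272365 bp away.

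Pycard, which encodes the adaptor ASC, had no assigned peak in any list. A match to the PU.1 motif lay at −44 relative to the Pycard start (2.23% of promoters) and a C/EBP match at −142 (9.09% of promoters).

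Of the caspases, Casp1 had its peak in the naive list only and the neighbouring Casp4 in the naive and day 15 lists. The Casp1 peak covered the start on chromosome 9 at 5298506 to 5298990, with the summit at 138 bp inside the gene, 16 tags, a fold of 8.50 and a −log10 p of 15.0. It was the strongest of the 4 naive member peaks not found at day 15. In its strength decile, the fourth of the naive list, 79.1% of naive peaks overlapped a day 15 peak and 20.7% a day 30 peak.

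The Casp4 peak lay at 5308755 to 5309048 in the naive list, with 16 tags, a fold of 5.82 and a −log10 p of 10.5. By day 15 it spanned 5308686 to 5308950 (22 raw tags, or 9.23 at naive depth, fold 6.28, −log10 p 13.7). Both summits were at the same base, at −26 relative to the first start. The naive peak covered 94 and the day 15 peak 163 of the 250 bases printed above, and the kappa B run at −93 lay within both. The 2 caspase genes had equal naive pileups of 16 tags, and only Casp4 had a day 15 peak, 1405 bp beyond the end of Casp1. The nearest day 30 peak was 921837 bp from Casp1.

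Gsdmd, the pore-forming target of these caspases, had no peak inside or within 1000 bp. Its single assigned region lay on chromosome 15, 4489 bp outside the gene at 75856892 to 75857655 in naive cells (18 tags, fold 7.98) and at 75856903 to 75857403 by day 15 (again 18 tags, fold 4.97). A pseudogene, Gm9568, lay within 1000 bp of this region. It was the one shared member region whose raw pileup was equal in both lists, and at naive depth its day 15 value corresponds to 7.55 tags.

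Il1b had no peak at its start or inside the gene in any list, and all its peaks lay outside, on both sides. The naive list had 3, on chromosome 2: 129373288 to 129373561, with its summit at −2311 bp from the gene start and 15 tags, 129360162 to 129360447, downstream of the gene, with 12 tags, and 129338068 to 129338694, between Il1b and Il1a, with 24 tags. The last was the strongest member peak of any list, with a fold of 10.5 and a −log10 p of 22.3, and lay 25875 bp from Il1b and 27882 bp from Il1a. The region upstream of the start lay within 1000 bp of Il1bos, a long noncoding RNA gene.

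In the same order, the 3 Il1b regions had 25, 16 and 25 raw tags at day 15 (10.5, 6.71 and 10.5 at naive depth). All 3 were in the day 15 list, with folds of 7.22, 5.03 and 8.33. The day 15 list had 2 more, both upstream: 129380325 to 129380533, 9161 bp from the gene, with 16 tags and a fold of 5.52, and 129413605 to 129413809, 42441 bp from it, with 17 tags and a fold of 6.27. The former lay within 1000 bp of a pseudogene, Spcs2-ps, and for the latter the next protein-coding gene was 43988 bp away, so its assignment to Il1b is by a narrow margin. Genome-wide, 12.8% of day 15 peaks overlapped no naive peak. At naive depth these pileups correspond to 6.71 and 7.13 tags, where the lowest naive peak had 6 tags and 95% of naive peaks had at least 9. Both values lay above the lowest naive peak and below the level that 95% of naive peaks reached, and the part of depth in these calls was not tested.

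**Figure D2:**
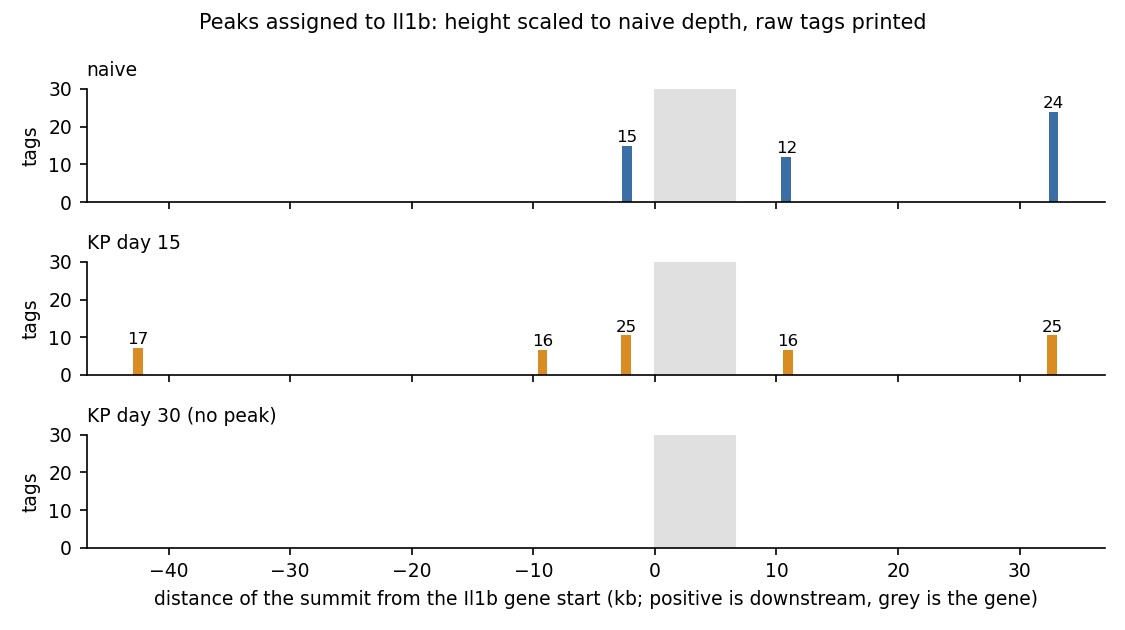
Peaks assigned to Il1b in the naive, KP day 15 and KP day 30 lists (panels), by distance of the summit from the gene start in kb (x axis, positive is downstream, the gene in grey) and by summit pileup scaled to the naive depth (y axis, tags), with the raw tags printed on the bars. The naive list had 3 peaks, the day 15 list the same 3 regions and 2 more upstream, and the day 30 list none.

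At day 30 no peak was assigned to Il1b. The nearest one, on chromosome 2 at 129320034 to 129320265 with 17 tags, lay 44304 bp from Il1b and was assigned to Il1a, the gene of the related cytokine IL-1 alpha, 9848 bp away. The same Il1a region had 17 naive tags and 19 day 15 tags, all in raw tags. At naive depth the naive, day 15 and day 30 values correspond to 17, 7.97 and 8.11 tags. One region of the interval between the 2 IL-1 genes was thus called in all 3 lists, and the region of 24 naive tags was not.

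Il18 had 2 peaks in the naive list and the same 2 regions at day 15. The first lay just inside the gene on chromosome 9, at 50554729 to 50555083 in naive cells (12 tags, fold 5.65) and at 50554736 to 50555021 by day 15 (19 tags, fold 6.97). It did not reach the 250 bases before the Il18 start, which held a TATA box match at −175 (11.6% of promoters). An edge of the protein-coding gene Bco2 lay 131 bp from the naive peak, so this first region cannot be given to Il18 alone. The second lay deep inside the gene, at 50567554 to 50567797 with 9 tags and at 50567507 to 50567733 with 18 tags. It was counted for Il18 only because it lay inside the gene. The nearest protein-coding gene end was that of Tex12, 6286 bp from the naive peak and 6239 bp from the day 15 peak. At naive depth the day 15 pileups of the 2 regions correspond to 7.97 and 7.55 tags, below the naive 12 and 9. The authors' fold was higher at day 15 at both regions (5.37 against 4.46 at the second). It was also higher at Casp4 and at none of the other shared member regions. This fold adds 1 to pileup and to background, so it varies with depth, and the part of depth in it was not tested.

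Il1rn, the receptor antagonist, had 1 naive peak and none later. It lay on chromosome 2 at 24345229 to 24345456, inside the gene at the second of 3 annotated starts, with the summit at −31 bp, 9 tags, a fold of 5.05 and a −log10 p of 7.03. This is a weak peak, in the lowest decile of the naive list, where 25.8% of peaks overlapped a day 15 peak. No list had a peak at the first Il1rn start, whose window held an AP-1 match at −141 (6.13% of promoters). The nearest day 15 peak was 24801 bp away.

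Tnf had 2 naive peaks and 1 at day 15. The promoter peak lay across the start on chromosome 17, at 35201869 to 35202231 in naive cells (16 tags, fold 6.12). By day 15 it lay at 35201653 to 35202145 (21 raw tags, or 8.81 at naive depth, fold 5.00). The naive summit was at −56 bp, upstream of the TATA box match printed above, and the day 15 summit 57 bp inside the gene, a move of 113 bp where the median over all shared peaks was 37 bp. The median over the 10 shared member regions was 65.5 bp. Summits also moved by 124 bp at Gsdmd and by 105 and 125 bp at Il1b regions. The naive promoter peak of Tnf lay 934 bp from Lta, the neighbouring gene of a related cytokine. The other naive peak, inside the gene at 35200606 to 35200805 (13 tags, fold 4.52), was not in the day 15 list. The nearest day 30 peak lay 34153 bp away, at Prrc2a.

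Il12b had 1 naive peak, outside the gene with its edge 857 bp before the start, on chromosome 11 at 44399005 to 44399206 (9 tags, fold 5.60). It was the member peak closest to the limit of 1000 bp for a gene's own surroundings, and the day 15 peak of Il1b 2093 bp from the gene was the first outside it. No day 15 or day 30 peak was assigned to Il12b, and the nearest were 55668 and 717992 bp away.

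At the 10 shared regions, the day 15 pileup per unit of depth was 0.568 of the naive one in the median (range 0.420 to 0.839), whereas the raw tags were 1.35 times the naive ones in the median. All 10 ratios per unit of depth were below 1, as were 99.5% of the 9443 naive peaks found at day 15, whose median was 0.449. Raw tags were higher at day 15 at 9 of the 10 and equal at Gsdmd, and with the median of all shared peaks set to 1 the members' median was 1.26. The second Il18 region (0.839), the Il1b region upstream of the start (0.699) and the first Nlrp3 start (0.682) had the highest ratios. Since weak naive peaks had higher ratios, each region was also placed among shared peaks of its own naive decile, and 7 of the 10 lay above the middle of it. The Il1b region upstream of the start was at the 96.6th percentile of its decile and the downstream Il1b region of 12 naive tags at the 42.5th. These were the highest and lowest of the 10 percentiles. On the ratio itself the Il1b regions ran from 0.437 to 0.699, inside the range of all 10.

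**Figure D3:**
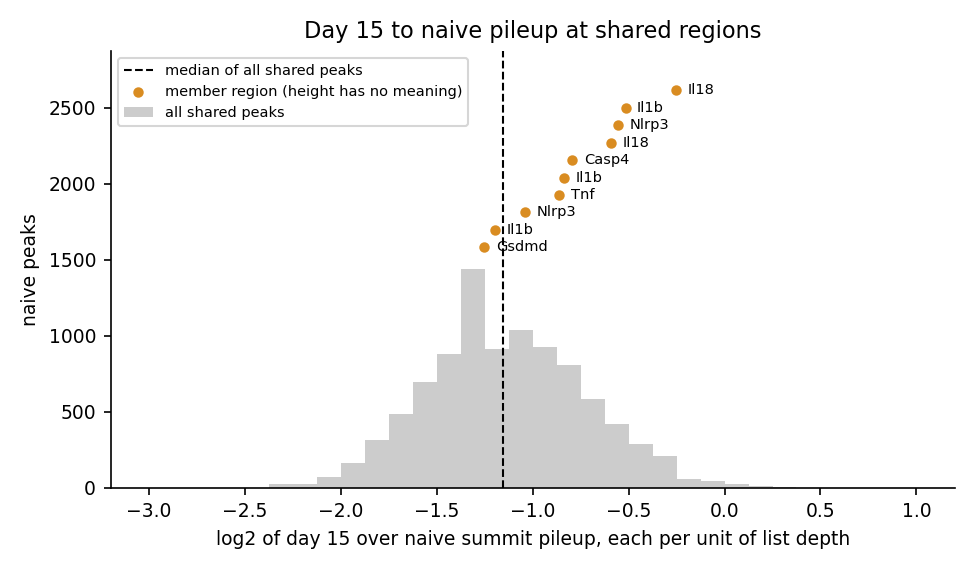
Log2 of the day 15 over the naive summit pileup, each per unit of list depth (x axis), for the 9443 naive peaks found at day 15 (grey, number of peaks on the y axis, dashed line at their median ratio of 0.449) and the 10 shared member regions (orange points, stacked for legibility). The member ratios ran from 0.420 at Gsdmd to 0.839 at the second Il18 region, all below 1, and would be above 1 at 9 of 10 in raw tags.

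**Figure D4:**
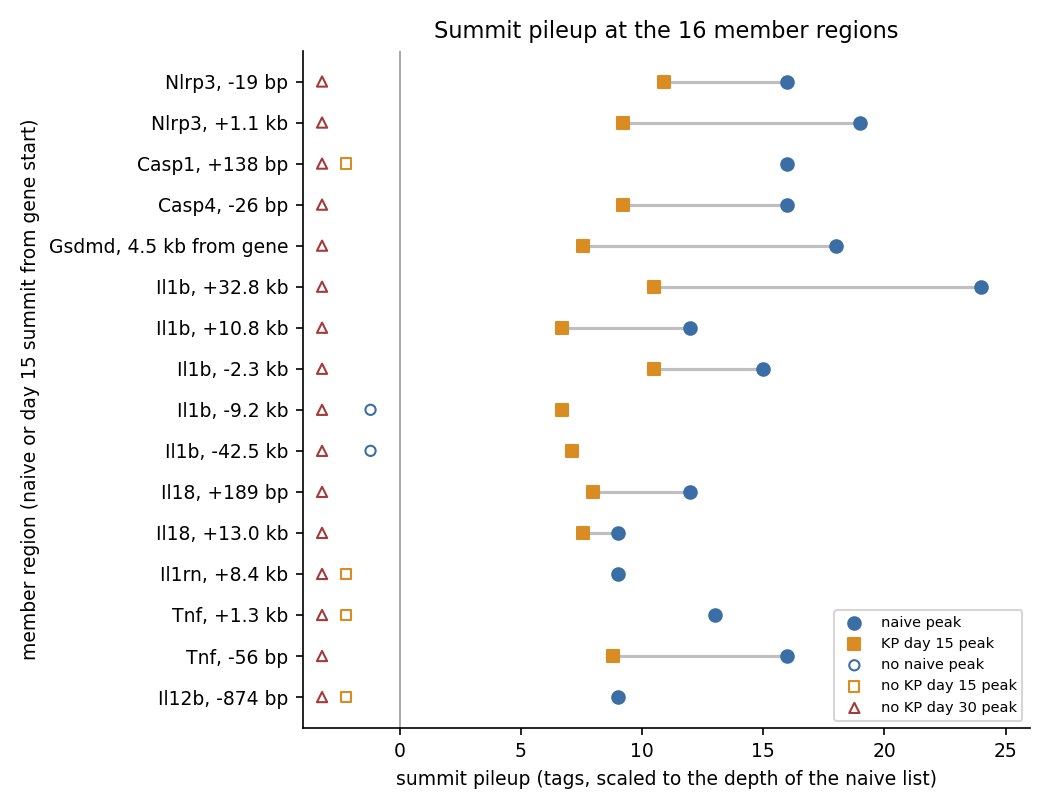
Summit pileup in tags, scaled to the depth of the naive list (x axis), at each of the 16 member regions (y axis, with the distance of the summit from the gene start), for naive peaks (blue) and day 15 peaks (orange), with open symbols where a list had no peak. No region had a day 30 peak, and the naive values ran from 9 tags at Il12b, Il1rn and the second Il18 region to 24 at Il1b. Raw day 15 tags were higher than the naive ones at 9 of the 10 shared regions.

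The naive member peaks were mostly of middling or low strength: 10 of the 14 were in the weaker 5 of 10 deciles of the naive list by −log10 p and none was in the strongest. Of the 14, 10 overlapped a day 15 peak, where 64.1% of all naive peaks did, and 0 overlapped a day 30 peak, where 21.7% did. Adding up, over the 14 peaks, the shares of naive peaks found in their own decile gives 7.26 for day 15 and 1.5 for day 30. The decile of the strongest Il1b peak had the highest of these shares, 96.5% at day 15 and 47.3% at day 30, and those of the others ranged from 25.8% to 79.1% and from 2.99% to 20.7%. Absence at day 30 is a statement on peak calls: the lowest pileup called there was 9 tags, or 4.29 tags at the naive depth, and 95% of day 30 peaks had at least 12 tags, or 5.72.

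**Figure D5:**
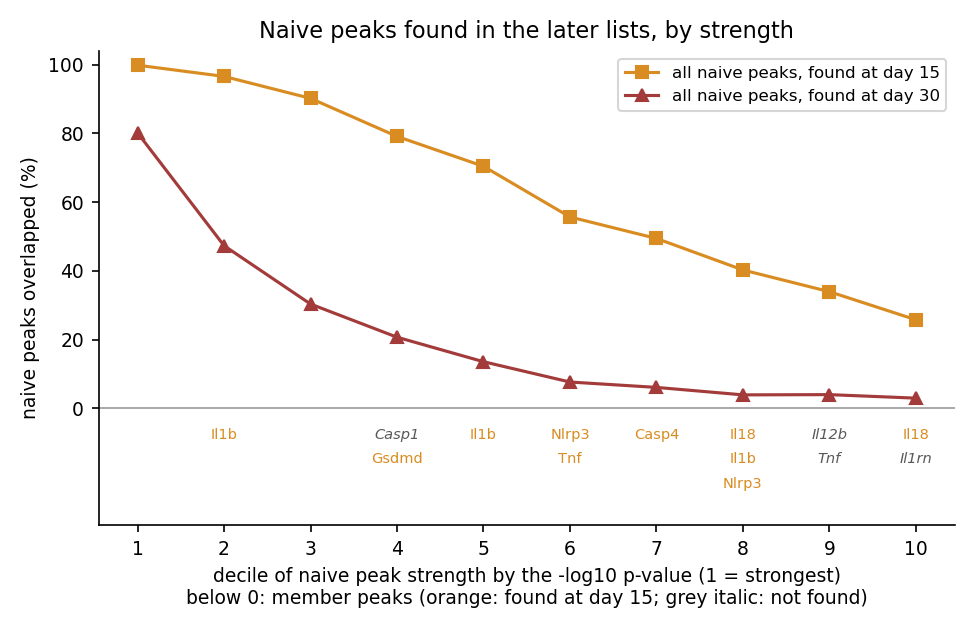
Percent of all naive peaks that overlapped a peak of the day 15 list (orange) or the day 30 list (red) on the y axis, by decile of naive peak strength (x axis, 1 the strongest), with the 14 naive member peaks written under their decile (orange if found at day 15, grey italic if not). The shares fell from 99.8% to 25.8% at day 15 and from 80.1% to 2.99% at day 30, and none of the 14 member peaks was found at day 30.

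The other genes of these pathways came from 3 lists of 68 matched genes. Of 25 further inflammasome genes, the number with a peak inside or within 1000 bp was 14 for naive cells, 11 for day 15 and 1 for day 30. These are 56%, 44% and 4%, against 42.6%, 36.1% and 15.2% of all protein-coding genes. Nlrc4, a sensor that works with NAIP proteins, had one in the day 15 list only. It lay across an edge of the gene (15 raw tags, chromosome 17: 74459049 to 74459248). At naive depth its pileup corresponds to 6.29 tags, where the lowest naive peak had 6 tags and most naive peaks had at least 9. The part of depth in this call was not tested. Over all protein-coding genes without a naive peak inside or within 1000 bp, 3.47% gained such a peak at day 15. Naip2 and Naip6, receptors for bacterial proteins, and P2rx7, the ATP-gated channel upstream of NLRP3, had one in the naive list only, with highest pileups of 11, 10 and 7 tags; the Naip genes are near-identical copies, where reads can be placed wrongly. Nlrp1b, Aim2 and Nlrx1 had one in the naive and day 15 lists. The 1 inflammasome gene with a peak in all lists was Bcl10, an adaptor of NF-kB signalling, with 49, 53 and 26 raw tags at its start. At naive depth these correspond to 49, 22.2 and 12.4 tags.

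Of 20 genes of the IL-1 axis, 10, 8 and 5 had such a peak (50%, 40% and 25%, against 42.6%, 36.1% and 15.2% of all protein-coding genes). The receptor gene Il1r1 had one in the naive list only (11 tags at most). Tab2, a kinase adaptor, had one in the naive and day 30 lists, with 26 and 15 raw tags (26 and 7.16 at naive depth). The co-receptor gene Il1rap, the inhibitors Irak3 and Tollip and the ligase gene Traf6 had one in the naive and day 15 lists. Myd88, Irak2 and Irak4, which carry the signal from the IL-1 receptor, had one in all 3. The raw tags were 42, 26 and 18 at the Irak4 start (42, 10.9 and 8.59 at naive depth). Beside Myd88 they were 40, 37 and 26 (40, 15.5 and 12.4 at naive depth).

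Of 23 genes of the TNF and IL-12 axis, 11, 10 and 5 had such a peak (47.8%, 43.5% and 21.7%, against the same shares of all protein-coding genes). The exception at day 15 was Lta, whose naive peak was the Tnf promoter peak itself. The TNF receptor gene Tnfrsf1b, its signalling partners Traf2 and Ripk1, and Il12rb2, a receptor chain for IL-12, had one in the naive and day 15 lists. Adam17, the protease that sheds TNF, Tnfaip2 and Tnfaip3, which encodes the NF-kB inhibitor A20, had one in all 3. At the Tnfaip3 start the raw tags were 29, 27 and 21 (29, 11.3 and 10 at naive depth). The most frequent presence pattern among the members, naive and day 15 without day 30, held for 4 of the 10 members, for 18 of the 68 other genes and for 19.3% of all protein-coding genes. By equality of presence over the 3 lists, the first 5 such genes in list order were Nlrp1b, Aim2, Nlrx1, Nek7 and Txnip. Peaks in all 3 lists were held by 0 of the 10 members, 10 of the 68 other genes and 14.8% of all protein-coding genes.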

How the data were processed

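The submitters' processing notes name the aligner Bowtie2 (version 2.3.4.1), the peak caller MACS2 (version 2.1.1) and the build mm10; settings, read filters and any transposase shift are not given in the sources used here, nor whether samples were pooled before calling. Per the labels, the 11 samples share 3 peak lists, 1 for each group, so nothing could be compared between samples, and p-values between conditions were not computed. The deposited lists have no headers; from their values they hold a fold over local background (a ratio), a −log10 p-value, a −log10 q-value and the summit. The authors' score, also deposited and not used, is in 99.9% of peaks 10 times the −log10 q-value cut to a whole number. The summit pileup and background were recovered from the authors' fold, the ratio of pileup and background with 1 added to each, and their p-value, an upper Poisson tail, within 0.001 on the −log10 scale for 100% of peaks. On simulated peaks with the real backgrounds 99.9% of naive pileups and 100% of day 15 and day 30 pileups came back exactly. The most frequent, lowest background gave each list's depth, for tags extended to 200 bp. A shared base (1 bp) made 2 peaks overlap. Deciles ranked naive peaks by −log10 p.

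The members and lists were chosen with earlier results of these data known. All 10 members are named. Of each related list up to 4 genes, in list order, whose status differed between the naive and day 15 or between the day 15 and day 30 lists, and up to 3 present in all, are named. One list entry, Il36rn, had no match. Gene ends and promoters came from RefSeq GRCm38.p6; the gene table has no exons, so exon and intron positions are not given. Python 3.11.15, numpy 2.4.6, pandas 2.3.3 and scipy 1.17.1 were used.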

Additional observations from a re-analysis of the deposited data

How the results depend on the processing

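The counts of members and of their peaks stayed within 1.5 times of the reported ones with a boundary of 500 or 2000 bp, with a nearest gene within 20 kb, with boundary peaks only, and with a −log10 q of at least 3, and all day 30 counts stayed at 0. With a boundary of 500 bp Il12b no longer counted, and with 2000 bp the Casp4 peak also counted for Casp1 at day 15. Taking the strongest 3352 peaks of every list, the length of the day 30 list, left 0 members with a peak inside or within 1000 bp among naive peaks and 0 by day 15, with 1 naive and 2 day 15 peaks assigned and 1 naive peak found at day 15. At equal list lengths the gene count was thus 0 in all 3 lists. Requiring overlap of a 0.5 share of the shorter peak or of the naive summit left 10 shared regions, and a margin of 200 bp left the 2 day 15 regions absent from the naive list. The median ratio of pileups at shared regions was 1.35 in raw tags and 1.26 with the median of all shared peaks set to 1, against 0.568 per unit of depth. No paired analysis was possible because each group had 1 peak list. Leaving out a replicate was not possible for the same reason.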

Other observations

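Il1b was 1 of 41 protein-coding genes that were the nearest gene, within 50 kb, of at least 2 more peaks at day 15 than in the naive list, among 9824 genes with such a peak in either list, while 596 genes had at least 2 fewer. The immediate early gene Fos (4 naive and 6 day 15 peaks), Irf5, which encodes an interferon regulatory factor (0 and 2), and Kdm6b, which encodes a histone demethylase (1 and 3), were also among the 41. These were picked after their values were seen. The day 15 list is the deeper of the 2, and the part of depth in these counts was not tested. Of the 938 genes with at least 3 naive peaks, 478 had none at day 30, Il1b among them.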
